A study of Mus musculus with 2 samples.

Results

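The genes described here encode fibronectin, the proteoglycan biglycan, matricellular proteins and proteins that store growth factor or cross-link matrix fibres. They are Fn1, Bgn, Sparc, Thbs1, Tgfbi, Ltbp1, Ltbp2, Loxl2 and Mmrn2, chosen by name through their mouse Ensembl gene identifiers. The choice was made with earlier results of these data known. Of these 9 genes, 7 are listed among the 11405 genes of the deposited tables. Tgfbi and Mmrn2 are not listed and were not analysed here.

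RNA was profiled by poly-A RNA-seq in MS1, an immortalised endothelial cell line from mouse pancreatic islets. One library came from cells infected with a lentivirus that carries a short hairpin RNA against Pspc1, labelled as a Pspc1 knockdown. The other came from cells with the same kind of lentivirus and a hairpin against LacZ, a gene of bacteria that mouse cells lack, labelled as wild type. Both groups therefore share the cell line and lentiviral infection, and each held 1 library. Whether the infected cells were a pool or a clone, and how long after infection they were taken, is not stated in the labels. The design asks how the RNA profile differs when Pspc1, an RNA-binding protein of nuclear paraspeckles, is knocked down.

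Fibronectin is secreted as a dimer, and cells pull it into fibrils through integrin receptors. Biglycan is a small leucine-rich proteoglycan that binds collagen and growth factors and, once released, can engage innate immune receptors. Matricellular proteins such as SPARC and thrombospondin-1 are secreted into the matrix, where they modulate adhesion and signalling more than they bear load. In endothelium, thrombospondin-1 is known as an inhibitor of angiogenesis, and multimerin-2 as a matrix protein of the vessel wall. Latent TGF-beta binding proteins hold TGF-beta in the matrix in an inactive form, and lysyl oxidase-like 2 cross-links collagens.

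Values are given as deposited, a read signal per gene that the authors had scaled for each library, with the knockdown library first. They rest on 53518762 reads on the listed genes in the knockdown library and 64009912 in the control library. Pspc1 itself had a value of 3.78 in the knockdown library and 28.8 in the control library, 7.62-fold lower with a counting interval of 6.56 to 8.88. With 1 library per group no spread between cultures could be measured, so no difference has a replicate check and none has a p-value. Each interval is a 95% exact (Clopper-Pearson) interval from the whole reads behind the values and covers counting error only. It compares 2 libraries, not 2 conditions. In bulk RNA, fewer cells that express a gene and less of its RNA per cell cannot be told apart.

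The 2 libraries looked endothelial. All 10 endothelial markers were listed, and their summed value was 6955 in the knockdown library and 6661 in the control library. None was called, but single markers went both ways. Kdr, the main VEGF receptor, had 77.3 in the knockdown library and 148.9 in the control library, and Cdh5, VE-cadherin, had 511.2 and 859.4 in the same order. Log2 ratios of Kdr, Tek, Cdh5 and Erg were -0.94, -0.89, -0.75 and -0.49, and those of Esam, Egfl7 and Tie1 were 0.59, 0.36 and 0.33. Of 9 fibroblast markers 8 were not listed, among them Col1a1, Col1a2, Col3a1, Dcn and Lum, and the listed one, Pdgfra, had 0.985 in the knockdown library and 1.15 in the control library. Of 8 smooth muscle and pericyte markers 7 were not listed, Acta2, Tagln and Myh11 included. The listed one, Pdgfrb, had 2.38 in the knockdown library and 0.720 in the control library. None of 7 pancreatic endocrine and acinar markers was listed. The macrophage and leukocyte list had Cd68 alone, 1 of 7, at 123.7 in the knockdown library and 102.7 in the control library. Of 4 lymphatic endothelial markers 3 were listed, with a summed value of 197.7 in the knockdown library and 187.1 in the control library. Most of that sum was Flt4, with 174.2 in the knockdown library and 153.3 in the control library. Lyve1 went the other way, with 15.5 and 25.7 in the same order, and Pdpn had 8.02 and 8.11.

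The upstream sequences of Bgn and Ltbp1 are shown. These members had the largest and the smallest difference between the libraries, with Bgn 4.81-fold higher and Ltbp1 1.06-fold lower in the knockdown library. The choice was limited by the RefSeq promoters (build GRCm38.p6), which were available for 4 of the 7 listed members. There was none for Fn1, Thbs1 or Loxl2. Each line gives the 250 bases before the start that RefSeq annotates, plus strand, at chrX:73483351-73483600 for Bgn and chr17:75005279-75005528 for Ltbp1. The gene coordinates given with the values are those of GENCODE, whose starts lie slightly further downstream. Neither stretch overlaps an exon annotated by GENCODE, and capitals mark motif matches.
Bgn: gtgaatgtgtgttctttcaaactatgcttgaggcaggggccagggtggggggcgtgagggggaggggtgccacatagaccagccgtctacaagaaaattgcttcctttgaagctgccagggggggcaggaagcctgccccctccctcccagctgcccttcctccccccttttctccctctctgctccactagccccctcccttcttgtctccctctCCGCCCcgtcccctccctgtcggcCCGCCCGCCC
Ltbp1: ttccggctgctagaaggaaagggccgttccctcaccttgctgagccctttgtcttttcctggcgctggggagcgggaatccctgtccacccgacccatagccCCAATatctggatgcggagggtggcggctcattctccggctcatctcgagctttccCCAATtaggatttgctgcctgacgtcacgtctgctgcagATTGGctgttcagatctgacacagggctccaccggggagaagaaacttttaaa
The Bgn stretch was 64.4% G and C and held 3 matches to the GC box GGGCGG, all on the minus strand, of which 2 overlap each other. The Ltbp1 stretch was 56.8% G and C and held 3 matches to CCAAT. Both strands were searched for these motifs and for TATAAA, the AP-1 site TGANTCA and CAGACA, a SMAD-type site, and none of these last 3 was in either stretch. Of 32851 RefSeq promoters, 32.7% held GGGCGG in the same window, 33.8% CCAAT, 12.4% TATAAA, 6.75% TGANTCA and 17.1% CAGACA. A match describes these letters and is not evidence that a factor binds there.

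Bgn was higher and Fn1 lower in the knockdown library, while the other 5 listed members differed by less than 2-fold. A gene was called higher or lower when the mean of both values was at least 50 and the difference at least 2-fold. Of the 5 members that reach this mean, 1 was called higher (Bgn) and 1 lower (Fn1). Over all 3629 genes with such a mean, 0.551% were called higher and 0.937% lower. Because the members were chosen with earlier results of these data known, these counts are descriptive and do not test the group against all genes. The log2 ratio of knockdown over control, taken after adding a pseudocount of 0.5 to both values, had a median of 0.20 over the 7 listed members. Over all genes of mean 50 or more the median was 0.0735, and 60.1% of them had a log2 ratio above 0, against 4 of the 5 members that reach that mean. The 5th and 95th percentiles of all such genes were -0.50 and 0.51.

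**Figure D1:**
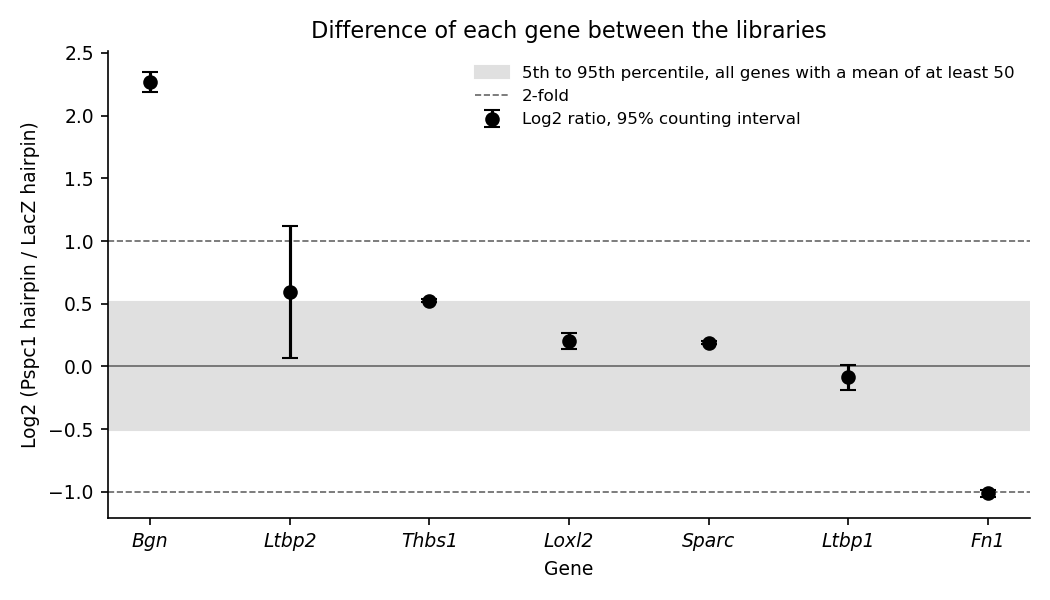
Log2 ratio without pseudocount of the Pspc1 hairpin library over the LacZ hairpin library (y axis) for the 7 listed genes (x axis), with 95% counting intervals from reads. The grey band is the 5th to 95th percentile of all genes of mean 50 or more and dashed lines mark 2-fold: Bgn lies above the upper line, Fn1 on the lower one, and the interval of Ltbp2, from 0.065 to 1.12, is the widest.

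Fn1 encodes fibronectin, the scaffold on which other matrix proteins are assembled. The gene (ENSMUSG00000026193) lies on mm10 chromosome 1 at 71585520 to 71653200, minus strand, with 11685 bp of merged exons. It had a value of 317.1 in the knockdown library, from 16099 reads, and 639.3 in the control library, from 41720 reads. The knockdown value was 2.02-fold lower, with a counting interval of 1.98 to 2.05, so that the 2-fold line lay inside counting error. The log2 ratio was -1.01, the 34th lowest of 3629, which made Fn1 the last of the 34 genes called lower.

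The call on Fn1 depended on the scaling. Its log2 ratio was -0.97 under trimmed mean of M values scaling, -0.96 under median-of-ratios scaling and -0.84 after a correction for exonic length and GC content, all short of 2-fold. It was -1.11 when scaled by total reads. Fn1 also has a long total of merged exons, and genes with long totals tended to be lower. There were 179 genes of mean 50 or more with at least 10 kb of merged exons, Fn1 among them. Their median log2 ratio was -0.21 and their 5th percentile -0.85, with 5 called lower, Fn1 included, and 0 called higher. Over all 3629 genes Spearman's rho of the log2 ratio with exonic length was -0.30, a description across genes, which are not independent replicates. The part of length in the Fn1 difference was not tested beyond that correction. Its exons overlap those of Apol7d, annotated as antisense, over 292 bp. That gene is not listed in the tables, and without a stated strand-marking kit such reads cannot be separated.

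Bgn encodes biglycan, whose core protein carries chondroitin or dermatan sulphate chains. The gene (ENSMUSG00000031375) lies on mm10 chromosome X at 73483602 to 73495933, plus strand, with 6099 bp of merged exons and none that overlap another annotated gene. Its value was 115.2 in the knockdown library, from 5846 reads, and 23.9 in the control library, from 1562 reads. The knockdown value was 4.81-fold higher, with a counting interval of 4.55 to 5.09. Its log2 ratio of 2.24 was the 2nd highest of 3629, and it lay between 2.05 and 2.29 under the 5 alternative settings. Biglycan is also made by fibroblasts and mural cells. The fibroblast and mural markers Col1a1, Dcn, Acta2 and Tagln were not listed in either library. The mural marker Pdgfrb was at 2.38 in the knockdown library and 0.720 in the control library. Whether other cell types had a part in the Bgn difference was not tested.

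The opposite differences of Bgn and Fn1 can be set against each other within a library, where the library scaling drops out. A trend with exonic length and GC content does not drop out, and the ratios here are not corrected for it. After the length and GC correction the log2 ratios were 2.28 for Bgn, -0.84 for Fn1 and 0.13 for Sparc. Per kb of exons, Bgn stood at 0.696 times the level of Fn1 in the knockdown library and at 0.0717 times in the control library. The change in that ratio was 9.70-fold, or 3.28 on the log2 scale, with a 95% counting interval of 3.19 to 3.36 (Wald, from the 4 read counts). Relative to Sparc, Fn1 was 2.30-fold lower and Bgn 4.22-fold higher in the knockdown library than in the control library.

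**Figure D2:**
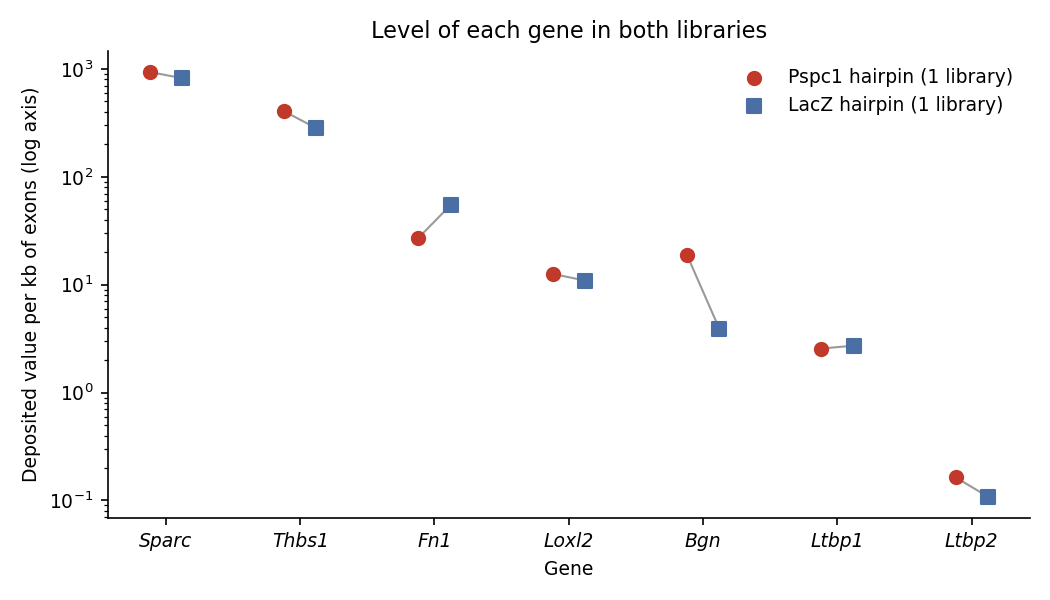
Deposited value per kb of merged exons (y axis, log scale) for the 7 listed genes (x axis), with the Pspc1 hairpin library as a circle left of the LacZ hairpin library as a square, 1 library each. Levels run from 937.9 and 821.9 for Sparc down to 0.164 and 0.109 for Ltbp2, and Bgn crosses above Loxl2 in the knockdown library.

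Sparc and Thbs1, the secreted matricellular genes, were by far the most abundant members. Sparc encodes a collagen-binding glycoprotein also called osteonectin, and its gene lies on mm10 chromosome 11 at 55394500 to 55423183, minus strand. Its value was 3553 in the knockdown library and 3113 in the control library, 1.14-fold higher, with a log2 ratio of 0.19 and an interval of 0.18 to 0.20. Sparc stayed well inside the range of most genes.

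Thbs1 encodes thrombospondin-1, which binds the receptors CD36 and CD47 and can activate latent TGF-beta. The gene lies on mm10 chromosome 2 at 118111876 to 118127133, plus strand. The deposited value was 2465 in the knockdown library and 1715 in the control library, 1.44-fold higher, with a log2 ratio of 0.52 and an interval of 0.51 to 0.53. That was the 172nd highest of 3629 and the largest difference among the 3 members of mean 50 or more that were not called. It lay just above 0.51, the 95th percentile of all genes of mean 50 or more. Relative to Sparc, Thbs1 was 1.26-fold higher in the knockdown library. Exons of Thbs1 overlap 208 bp of Gm29233, a noncoding gene on the other strand that is not listed.

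Ltbp1 and Ltbp2, the latent TGF-beta binding proteins, were expressed at low levels, and neither reached the mean of 50. Ltbp1 tethers latent TGF-beta to fibronectin and fibrillin, and its gene lies on mm10 chromosome 17 at 75005568 to 75392512, plus strand. Its value was 27.4 in the knockdown library and 29.1 in the control library. The log2 ratio was -0.086 and the interval ran from -0.19 to 0.013, so no difference was detectable at this depth, and the sign turned to 0.062 after the length and GC correction.

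Ltbp2, unlike its relatives, does not bind latent TGF-beta and is known for its part in elastic fibres. The gene lies on mm10 chromosome 12 at 84783212 to 84876532, minus strand. It had a value of 1.34 in the knockdown library, from 68 reads, and 0.889 in the control library, from 58 reads. The interval of its log2 ratio without pseudocount was 0.065 to 1.12, the widest of the 7. A pseudocount of 5 moved its log2 ratio to 0.11, against 0.41 with 0.5, and its exons overlap 764 bp of an antisense gene that is not listed.

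Loxl2, the only matrix cross-linking enzyme among the members, differed little. It oxidises lysines of collagen IV and other collagens, and its gene lies on mm10 chromosome 14 at 69609068 to 69695834, plus strand. The value was 68.1 in the knockdown library and 59.1 in the control library, 1.15-fold higher, with a log2 ratio of 0.20 and an interval of 0.14 to 0.27. Its log2 ratio was close to that of Sparc, with a difference of 0.013 and an interval of -0.053 to 0.080. Exons of Loxl2 overlap 301 bp of an antisense gene and 7 bp of a miRNA gene, neither of them listed.

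The order of the members by level per kb of exons differed between the libraries in 1 place. In the knockdown library it was Sparc (937.9 per kb), Thbs1 (405.8), Fn1 (27.1), Bgn (18.9), Loxl2 (12.6), Ltbp1 (2.56) and Ltbp2 (0.164). In the control library Sparc had 821.9 per kb, Thbs1 282.4, Fn1 54.7, Loxl2 10.9, Bgn 3.92, Ltbp1 2.72 and Ltbp2 0.109. Bgn thus stood above Loxl2 in the knockdown library and below it in the control library. Without replicates, whether neighbours in this order differ beyond the spread between cultures is not known. The 7 genes lie on 7 different chromosomes.

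The members together took a small and similar share of each library. They held 0.621% of all reads in the knockdown library (interval 0.619 to 0.623) and 0.569% in the control library (0.567 to 0.571). Fn1 made up 4.84% of the members' reads in the knockdown library and 11.5% in the control library. Bgn made up 1.76% in the knockdown library and 0.429% in the control library. Thbs1 made up 37.6% in the knockdown library and 30.7% in the control library, and Sparc 54.3% and 55.8% in the same order.

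**Figure D3:**
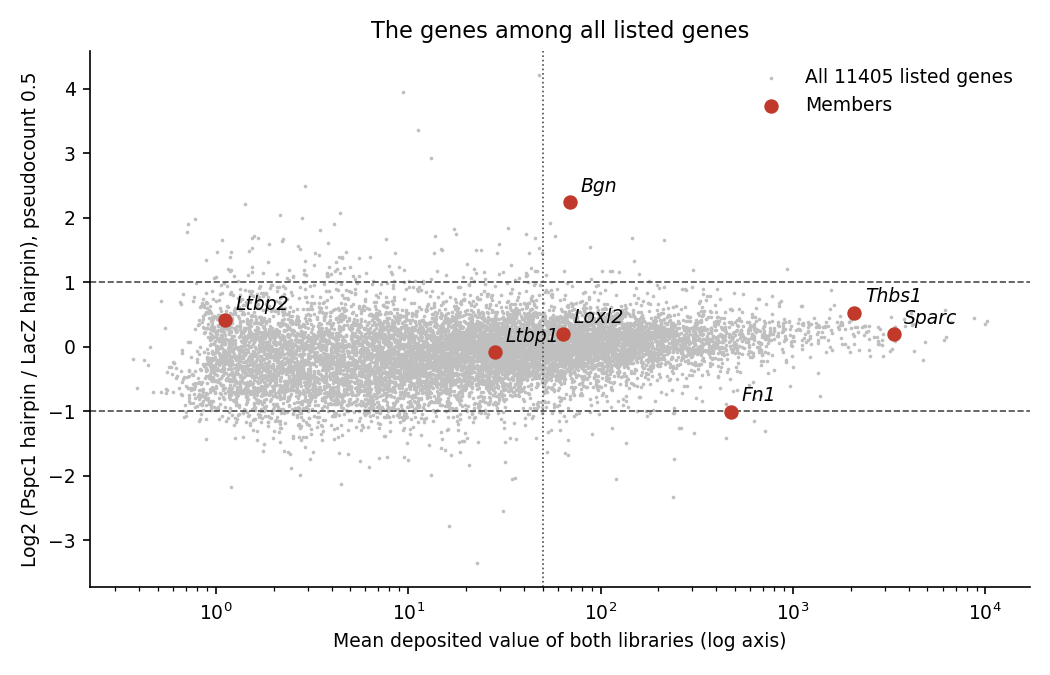
Log2 ratio of the Pspc1 hairpin library over the LacZ hairpin library with a pseudocount of 0.5 (y axis) against the mean deposited value of both libraries (x axis, log scale) for all 11405 listed genes in grey and the 7 listed members in red. Dashed lines mark 2-fold and the dotted line a mean of 50. Among genes of mean 50 or more Bgn, at 2.24, is the 2nd highest and Fn1, at -1.01, the 34th lowest. Krt19, at 2.25, lies beside Bgn, and Sparc and Thbs1 lie at the right end.

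The genes with log2 ratios nearest to those of Bgn and Fn1 were picked, which with 2 libraries is a likeness in a single number. Genes without a symbol or with a clone or predicted name were left out. Of those picked for Bgn, only Krt19 was close. Nearest to Bgn among genes of mean 50 or more were Krt19, a keratin (115.2 in the knockdown library and 23.8 in the control library), Cryab, a small heat shock protein (87.1 and 22.7 in the same order), and Cebpd, a transcription factor (89.0 and 26.9). Their log2 ratios differed from that of Bgn by 0.0075, 0.33 and 0.53. Nearest to Fn1 were Dock6, a guanine nucleotide exchange factor (40.6 in the knockdown library and 82.8 in the control library), Ctsh, the lysosomal protease cathepsin H (58.1 and 118.3 in the same order), and Tmem123 (36.9 and 75.5). Their log2 ratios differed from that of Fn1 by 0.0089, 0.011 and 0.012.

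Other matrix and receptor genes, taken from 7 lists that hold none of the members, mostly differed by less than 2-fold. Of 133 genes in these lists 86 were listed and 32 had a mean of at least 50. Of those 32, 0 were called higher and 1 lower, Esm1, where 0.551% of all genes were called higher and 0.937% lower. Of the 47 genes of mean 20 or more, 23 had a log2 ratio above 0 and 24 below, with a median of -0.021. Over all 5892 genes of such a mean 55% were above 0 and 45% below, with a median of 0.038.

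Genes of collagen cross-linking and processing, relatives of Loxl2 included, were nearly balanced. Of 16 genes 13 were listed and 8 had a mean of at least 50, none of them called. The median log2 ratio over 10 genes of mean 20 or more was 0.0060. Loxl3, a further lysyl oxidase, had 43.5 in the knockdown library and 57.2 in the control library, a log2 ratio of -0.39. Bmp1, the protease that trims procollagens and the biglycan precursor, had 168.7 in the knockdown library and 130.2 in the control library, a log2 ratio of 0.37. The collagen-modifying enzymes Colgalt1 and P4ha2 both had a log2 ratio of 0.17.

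Of 16 genes related to the latent TGF-beta binding proteins and to multimerin-2, 10 were listed, only Ltbp3 and Emilin1 had a mean of at least 50, and neither was called. Log2 ratios of the 5 genes of mean 20 or more ran from -0.87 to 0.22, with a median of -0.027. The lowest was that of Eln, elastin, with 18.5 in the knockdown library and 34.3 in the control library. Among genes of lower mean, Ltbp4 had a log2 ratio of -0.70, from 78 reads in the knockdown library and 184 in the control library. Emilin2 had a log2 ratio of -0.58, from 366 and 717 reads in the same order. The other genes of lower mean, Fbn1, Fbln2 and Fbln5, had log2 ratios of -0.54, 0.16 and -0.0017. Eln and these genes of lower mean were named after their values were seen. Ltbp3, which binds latent TGF-beta, had 111.4 in the knockdown library and 132.9 in the control library. Emilin1, of the multimerin family, had 235.1 in the knockdown library and 239.6 in the control library, and its interval of -0.062 to 0.0070 on the log2 scale included equality.

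Of 23 other matricellular and secreted matrix genes, 9 were listed and 3 had a mean of at least 50, none called. Tnc encodes tenascin-C, which binds fibronectin, and had 103.9 in the knockdown library and 207.3 in the control library. Its log2 ratio of -0.99 lay just short of the rule and was -1.10 when scaled by total reads. Mfge8, a secreted glycoprotein that binds integrin alpha-v beta-3, had 715.2 in the knockdown library and 504.0 in the control library, a log2 ratio of 0.50. Fstl1, of the SPARC family, had 147.2 in the knockdown library and 185.9 in the control library, a log2 ratio of -0.34, which was also the list median over these 3 genes.

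Of 22 proteoglycan core proteins, the class of biglycan, 11 were listed and 2 had a mean of at least 50. Esm1, a proteoglycan of endothelial tip cells, was called lower, with 67.3 in the knockdown library and 162.1 in the control library, 2.41-fold. Its interval ran from -1.32 to -1.21 on the log2 scale. Sdc1, the cell-surface proteoglycan syndecan-1, had 194.8 in the knockdown library and 172.8 in the control library. Of the small leucine-rich proteoglycans among these 22 genes, only Prelp was listed (1.83 in the knockdown library and 1.99 in the control library), a gene named after its values were seen. The list median over 6 genes of mean 20 or more was 0.090.

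Genes that build glycosaminoglycan chains, such as those biglycan carries, went both ways. Of 20 genes 16 were listed, 5 reached a mean of 50 and none was called. The median over 9 genes was -0.078. B3gat3, which adds the last sugar of the linker between core protein and chain, had 153.9 in the knockdown library and 87.9 in the control library, 1.75-fold higher. Xylt2, which adds the first sugar of that linker, had 42.2 in the knockdown library and 61.5 in the control library, a log2 ratio of -0.54. Fam20b, a kinase that modifies the linker, had a log2 ratio of -0.11, and Chst14, a sulphotransferase of dermatan sulphate, of 0.10; these signs turned after the length and GC correction, and that of Chst14 also when scaled by total reads.

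Cell-surface receptors of the members went both ways as well. Of 22 genes 16 were listed, 7 reached a mean of 50 and none was called, with a median over 9 genes of -0.10. Integrin alpha-5 beta-1 is the main receptor for fibronectin fibril assembly. Its alpha chain gene Itga5 had 764.6 in the knockdown library and 570.3 in the control library, a log2 ratio of 0.42. Its beta chain gene Itgb1 had 127.1 in the knockdown library and 196.6 in the control library, a log2 ratio of -0.63. Itgb3, a chain of the alpha-v beta-3 integrin, had 299.8 in the knockdown library and 194.3 in the control library, a log2 ratio of 0.62. Stab1, a scavenger receptor that takes up SPARC, had 325.2 in the knockdown library and 508.3 in the control library, a log2 ratio of -0.64.

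TGF-beta ligands and known TGF-beta target genes held 12 listed genes of 16, of which 5 reached a mean of 50 and none was called. The median over 6 genes was 0.057. Tgfb1 had 73.9 in the knockdown library and 61.6 in the control library. Furin, the protease that cleaves the TGF-beta precursor, had 51.9 in the knockdown library and 61.8 in the control library, and Tgif1, a SMAD corepressor, 91.8 and 85.1 in the same order.

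**Figure D4:**
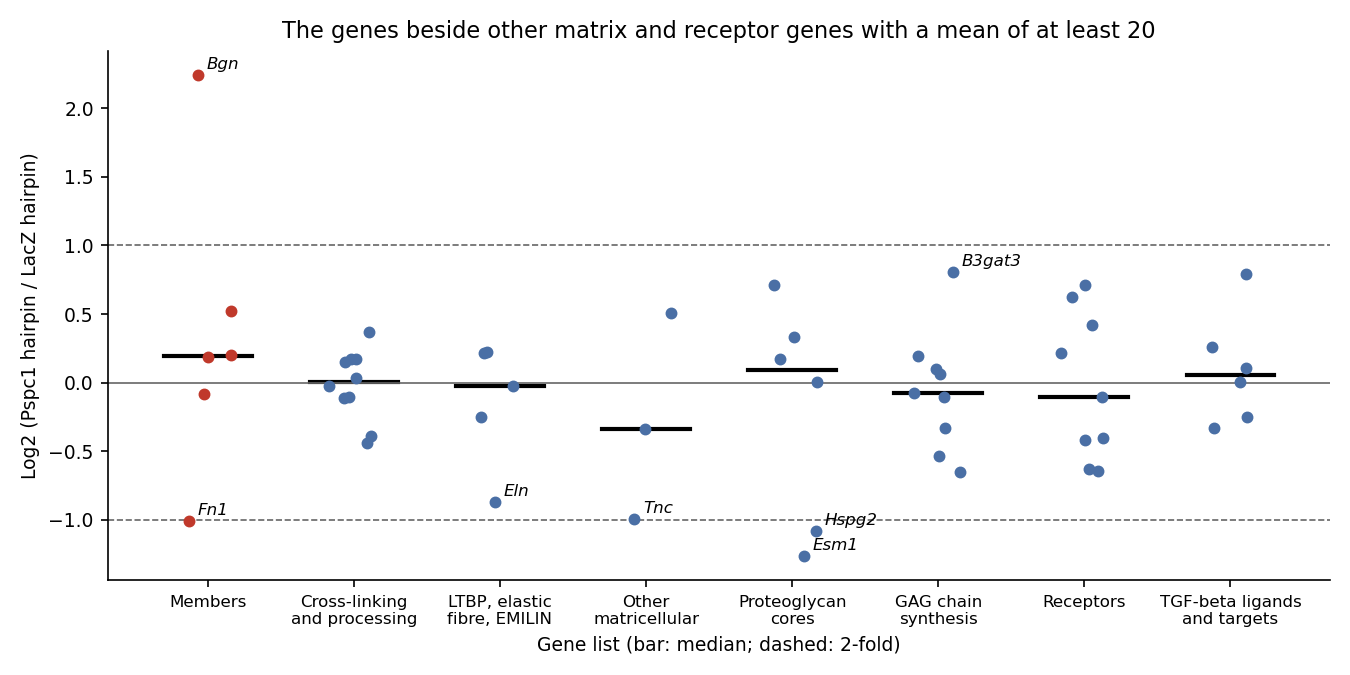
Log2 ratio of the Pspc1 hairpin library over the LacZ hairpin library (y axis) for the listed members and for 7 lists of other matrix and receptor genes (x axis), each dot a gene with a mean of at least 20, bars the list medians and dashed lines 2-fold. Bgn at 2.24 lies above every gene of the 7 lists, whose highest value is 0.80 for B3gat3, and Esm1 at -1.26 is the lowest.

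**Figure D5:**
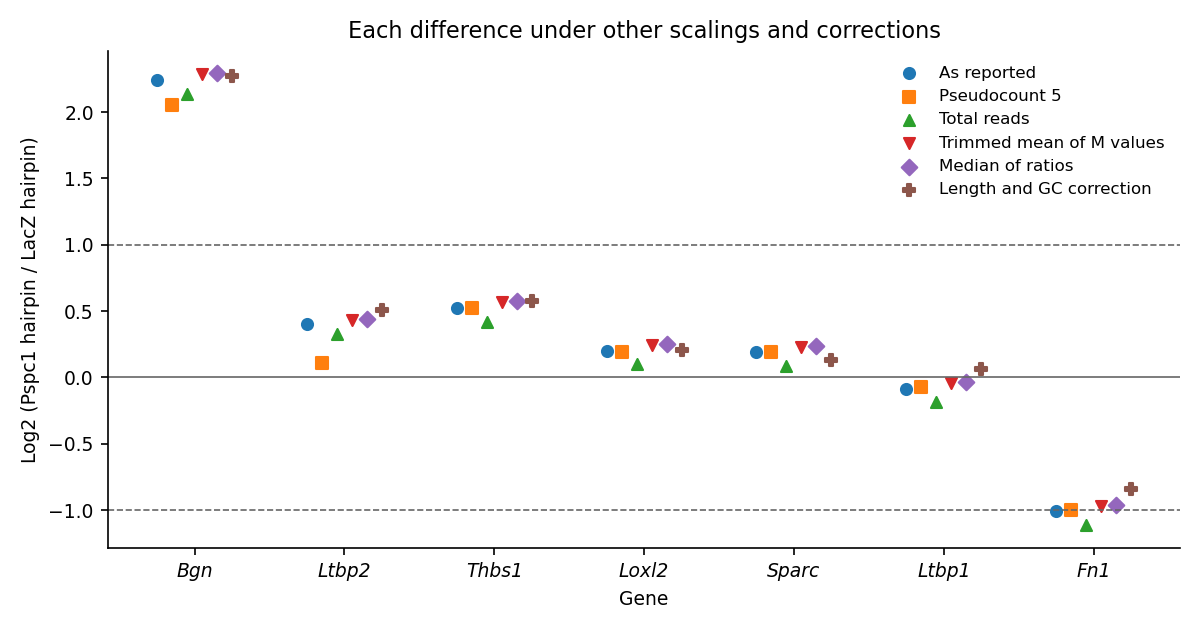
Log2 ratio of the Pspc1 hairpin library over the LacZ hairpin library (y axis) for the 7 listed genes (x axis) as reported and under 5 other settings, shown by symbol. Bgn stays between 2.05 and 2.29, Fn1 lies on both sides of the 2-fold line between -1.11 and -0.84, and Ltbp1 lies on both sides of 0.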

How the data were processed

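Per the labels' protocols, RNA was extracted with TRIzol and the NEBNext Ultra RNA kit was used on poly-A RNA. The submitters' processing notes name DESeq 1.39.0, featureCounts 2.0.0, HISAT2 2.1.0 and Trimmomatic 0.39, and build mm10, without roles or order. The annotation, strand setting, filter on low genes and scaling formula are not given in the sources used here. Each deposited value is a signal per gene, scaled by the authors. All are whole multiples of 1 step per library (tolerance 0.01 reads, 100% of values), 0.0197 in the knockdown library and 0.0153 in the control library, and dividing by it gave reads. Such reads carry no molecular identifiers.

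The values were used as deposited, since they were already scaled. Exonic lengths, overlaps and positions came from GENCODE M21 (GRCm38, the same build as mm10), and GC content from its longest transcript per gene. Symbols were found for 11399 of 11405 identifiers. The length and GC correction subtracted a cubic fit on log10 length and GC over genes of mean 20 or more. The genes named were the members, Pspc1, list genes past the rule with up to 4 others per list of largest absolute log2 ratio among those of mean 50 or more, and the 3 genes nearest to the highest and lowest member of mean 50 or more. Genes without a symbol or with a clone or predicted name could not be picked as nearest. Any other gene is said to be chosen after its values were seen, apart from cell type markers. One list gene named by this rule is not reported here. The members and lists were chosen with earlier results of these data known. Steps were tested on simulated reads. Python 3.11.15, numpy 2.4.6, pandas 2.3.3, scipy 1.17.1 and matplotlib 3.10.9 were used.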

Additional observations from a re-analysis of the deposited data

How the results depend on the processing

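Both groups held 1 library, so no replicate could be left out. No paired analysis was possible because each group has 1 library and no test was run. The count of members called higher was 1 under every setting run. The count called lower was 1 as reported and 0 under trimmed mean of M values scaling, under median-of-ratios scaling and with the length and GC correction; the gene concerned is Fn1. The members' median log2 ratio was 0.099 when scaled by total reads, against 0.20, a setting that moved the median of all genes by -0.099. Over the other lists, 0 of 32 genes were called higher as reported and 3 of 32 at 1.5-fold. With no filter on low values it was 1 of 86. Among all genes 3.39% were called higher at 1.5-fold and 1.31% with no filter. The lists' count called lower was 1 of 32 as reported, 4 of 32 at 1.5-fold and 6 of 86 with no filter. Among all genes 3.89% were called lower at 1.5-fold and 2.68% with no filter. The lists' count called lower was 2 when scaled by total reads (Tnc added). Over all genes, those called lower numbered 34 as reported, 47 by total reads, 25 by trimmed mean, 24 by median of ratios and 28 after the length and GC correction. The cause of these shifts was not tested beyond what each setting removes or adds. The median of 5 of the 7 lists changed sign under at least 1 setting, so no list median is read as a direction. Of 35 recomputed member log2 ratios (5 settings for each of 7 genes), 18 moved by no more than the counting interval reaches to each side and 17 by more. Reads limit Ltbp2 most, with 68 in the knockdown library and 58 in the control library.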

Other observations

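Among matrix and receptor genes with a mean under 50, a few differed by at least 2-fold, all named after their values were seen and none with a replicate check. Hspg2, the basement membrane proteoglycan perlecan, had 28.4 in the knockdown library, from 1444 reads, and 60.8 in the control library, from 3965 reads, a log2 ratio of -1.08. Tgfb3, a TGF-beta ligand, was the gene on the higher side, with 11.4 in the knockdown library and 4.83 in the control library, a log2 ratio of 1.16. Csgalnact1 and Xylt1, enzymes of glycosaminoglycan chain synthesis, had log2 ratios of -1.30 and -1.06, and the matrix genes Tnxb and Spp1 of -1.11 and -1.06. Their values were all under 10 in both libraries.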
